A study of Homo sapiens with 12 samples.

Results

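The 40 genes of the ATF4 and amino acid stress programme listed here were followed by nascent transcription in Mia PaCa-2 cells, a human pancreatic carcinoma line, in which MYC, MED30 or both could be switched on. The genes were taken by name: 2 sensor kinases, 6 transcription factors, 7 stress effectors, 7 enzymes of serine, glycine and one-carbon synthesis, 9 other enzymes of amino acid metabolism and 9 amino acid transporters. All 40 genes were listed in each of the 12 tables, among 28278 symbols in the count tables and 25045 named symbols in the MED30 tables. Transcription was measured by precision run-on sequencing (PRO-seq), in which engaged polymerases extend their transcripts in isolated nuclei with biotin-labelled nucleotides, so that ongoing transcription is read rather than the amount of mRNA.

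Each group was a stable Mia PaCa-2 line with a doxycycline (Dox) inducible cDNA, either MED30, a subunit of the Mediator complex that links transcription factors to RNA polymerase II, or MYC-3xHA (MYC with an HA tag), or both of them. Controls were the same lines without Dox, and overexpression samples had 0.5 μg/ml Dox, for 1 day by the design text of the series and the methods of the study, whereas its results text speaks of 2 days. With 2 libraries in each of the 6 groups, and no statement that these were separate cultures, p-values reflect only how far these libraries differ, which may be technical. No Dox-treated cells without a cDNA were among the 12 libraries, so an effect of Dox itself and an effect of the cDNA cannot be told apart. No spike-in values were used, so every change is relative to the other genes.

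ATF4 is the transcription factor of the integrated stress response. Kinases that sense a lack of amino acids, unfolded protein or other stress phosphorylate the translation factor eIF2, which slows protein synthesis in general while letting ATF4 mRNA be translated, and ATF4 then activates genes that make, import and charge amino acids onto tRNA. MYC also drives amino acid uptake and one-carbon metabolism in many tumor cells. Because ATF4 is controlled largely in translation, transcription of its own gene does not measure its activity.

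The labels, the kind of table and the depth bear on every value. The MYC gene read 398 and 387 CPM (a gene's count scaled to the TMM-adjusted library total) in the controls labelled MYC and 269 and 261 CPM with Dox, and so fell, while it rose in MYC&MED30 from 279 and 300.0 CPM to 659 and 623 CPM. MED30 rose in all 3 lines, also in the libraries labelled MYC, where it went from 32.9 and 32.1 CPM to 815 and 620 CPM. These libraries are therefore named by their label throughout (the line labelled MYC, with single libraries such as MYC control 1 also given as labelled), and no direction is drawn from that label. The 4 MED30 tables hold scaled values and not counts, given here in scaled units (TMM-scaled values divided by the mean sum of the 4 tables, on the scale of CPM), and each was most like the same-numbered library of the same condition labelled MYC (Pearson r across 5743 genes of 0.926 to 0.933). The ratio between the 2 replicates also ran together in both sets (r of 0.911 in the controls and 0.930 with Dox), so that the results of the MED30 tables and of the libraries labelled MYC are set side by side here and are not taken as independent of each other. The totals were 20616713 to 29881914 counts in 7 libraries and 1257499 in MYC&MED30 control 2, where 3 counts equal 2.39 CPM instead of 0.100 to 0.146 CPM and the median count of the 39 tested members was 111 instead of 1423 to 2398.

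As a check of the cell type, KRT8 lay between 178 and 256 CPM, KRT18 between 76.5 and 145 CPM and VIM between 477 and 1114 CPM over the 8 count libraries. Of the 4 genes listed as lost or silent in this line, only CDKN2B, which is deleted in it, was at 0 in all 8 libraries. CDKN2A lay at 0.375 CPM or less and MTAP between 0.588 and 1.77 CPM. CDH1 went the other way, at 15.2 to 26.0 CPM in the libraries labelled MYC and 1.36 to 2.21 CPM in MYC&MED30. The summed levels of 4 acinar, 4 leukocyte and 4 endothelial markers were 2.94 to 11.2 CPM, 30.4 to 46.9 CPM (nearly all from CD68) and 6.37 to 15.1 CPM. The 4 fibroblast markers summed to 188 to 248 CPM, nearly all from COL1A2 and COL3A1, with COL1A1 and DCN at 2.49 CPM or less.

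The DNA element that ATF4 binds together with C/EBP proteins (written here as TGATGNAA, on either strand) was searched in windows of 300 bases, from 250 before to 50 after each start site, in RefSeq on GRCh38.p14. Of the 40 members, 34 had a window, and 10 of these (29.4%) held the element, against 4.47% of all 27167 genes with a window. They were ASNS, BCAT1, CEBPG, CHAC1, GOT1, SLC1A4, SLC1A5, SLC38A1, SLC3A2 and SLC7A1. A gene can have several windows, and there were 56 for these 34 members and 34943 for the 27167 genes. Since the members were picked by name as genes of the ATF4 and amino acid stress programme, their share is no test of the element. The E-box CACGTG, the letters that MYC and MAX bind, was in 6 of 34 (17.6%) against 8.74% of all genes with a window, namely ALDH18A1, ATF4, BCAT1, MTHFD1, SLC1A5 and SLC7A5. The 2 elements do not overlap in their letters. GPT2, NUPR1, PSPH, PYCR1, SHMT2 and SLC7A11 had no window in the table. The stretches below belong to members whose values the results turn on, and capitals mark the element (TGATGNAA or its reverse complement, and the E-box for ATF4). Each runs 5′ to 3′ on the strand of the gene and ends before the start site or with the element.
ASNS, chr7:97872409-97872536, minus strand: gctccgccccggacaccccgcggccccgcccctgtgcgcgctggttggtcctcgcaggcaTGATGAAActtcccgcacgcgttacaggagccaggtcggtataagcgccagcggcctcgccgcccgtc
CEBPG, chr19:33374011-33374112, plus strand: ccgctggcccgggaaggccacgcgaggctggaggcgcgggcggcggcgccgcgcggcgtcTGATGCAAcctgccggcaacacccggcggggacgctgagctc
SLC38A1, chr12:46266513-46266580, minus strand: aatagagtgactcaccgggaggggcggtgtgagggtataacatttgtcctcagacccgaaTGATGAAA
SLC7A1, chr13:29595674-29595741, minus strand: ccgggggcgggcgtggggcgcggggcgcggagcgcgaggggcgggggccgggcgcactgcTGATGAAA
CHAC1, chr15:40953221-40953329, plus strand: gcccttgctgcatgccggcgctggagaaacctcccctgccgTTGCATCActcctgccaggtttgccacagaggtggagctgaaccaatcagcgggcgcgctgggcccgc
SLC1A4, chr2:64989332-64989399, plus strand: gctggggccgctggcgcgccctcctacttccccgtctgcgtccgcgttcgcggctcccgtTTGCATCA
ATF4, chr22:39520417-39520542, plus strand: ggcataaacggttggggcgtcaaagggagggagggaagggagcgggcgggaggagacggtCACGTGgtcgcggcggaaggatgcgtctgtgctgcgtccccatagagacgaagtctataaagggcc

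The element stood in the windows of members with different calls, and it began before the start site in those printed except SLC7A1, where it began at base 8 counted from the start site. ASNS, CEBPG, SLC38A1 and SLC7A1 fell in the libraries labelled MYC, CHAC1 did not pass the test in any Dox comparison, and SLC1A4 fell in MYC&MED30. The members with the element that are not printed, BCAT1, GOT1, SLC1A5 and SLC3A2, passed in no Dox comparison. PSAT1 and SLC6A9, which fell in the libraries labelled MYC, had a window without the element. A match of letters is a description and not a bound site.

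Taken by comparison, 11 of the 39 members tested fell with Dox in the libraries labelled MYC and none rose (edgeR quasi-likelihood test, Benjamini-Hochberg adjusted p under 0.05). That is 28.2% of the members tested, where 7.71% of all 19318 genes tested fell and 5.32% rose. In the MED30 values, 11 of the 37 members tested fell (29.7%) and none rose (limma, adjusted p under 0.05), where 8.63% of 14771 genes fell and 7.37% rose. The MYC&MED30 line had 3 of 39 that fell (7.69%) and none that rose, where 3.09% of all genes fell and 3.65% rose. The median log2 fold change of the members was -0.11 in the line labelled MYC, -0.09 in MED30 and -0.09 in MYC&MED30, where the medians of all genes were 0.01, 0.01 and 0.02. Scaled by library size alone, the members' median turned to 0.037 in the line labelled MYC and 0.014 in MED30, where the medians of all genes moved to 0.16 and 0.11, so that the direction of the median holds only relative to the other genes. With that scaling 8 members fell and 5 rose in the line labelled MYC (ATF5, CTH, GPT2, GOT1 and GLUL), where 4.36% of all genes fell and 14.4% rose. In MED30 8 fell and 2 rose (GPT2 and GOT1), where 4.66% of all genes fell and 12.6% rose. In MYC&MED30 4 fell and 1 rose (CTH), where 3.41% of all genes fell and 6.09% rose.

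Of the 14 members called in at least 1 line, only MTHFD2 fell in all 3 in these tests, and 26 members were called in none. The members that fell in the libraries labelled MYC were mainly transporters (5 of 9) and serine and one-carbon enzymes (4 of 7), with 1 transcription factor and ASNS beside them. Neither of the sensor kinases and none of the 7 stress effectors passed the test in the lines where they were tested. CBS, the first enzyme of transsulfuration, was at 0 counts in all 8 count libraries and could not be tested there. It has a near-identical copy, CBSL, with which its reads can be shared, and in the MED30 tables it read 3.57 scaled units in the controls. NUPR1, STC2 and GLUL were too low to be tested in the MED30 values.

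The count of calls changed with single libraries, among the members and over all genes. With either control labelled MYC left out, fewer members and a smaller share of all genes fell in that line. The members' median log2 fold change there was -0.14 without MYC control 1 and -0.09 without MYC control 2, where that of all genes was 0.01 each time. PSAT1, SLC6A9, SLC7A11 and SLC38A1 were the members called in each of the 16 alternatives. In MYC&MED30, fewer members and fewer of all genes fell with either Dox library or control 1 left out. Without control 1, which leaves only the shallow control, the members' median was 0.045 and that of all genes 0.17. In the MED30 values, fewer of both fell with either control left out, and more of both with either Dox library left out.

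**Figure D1:**
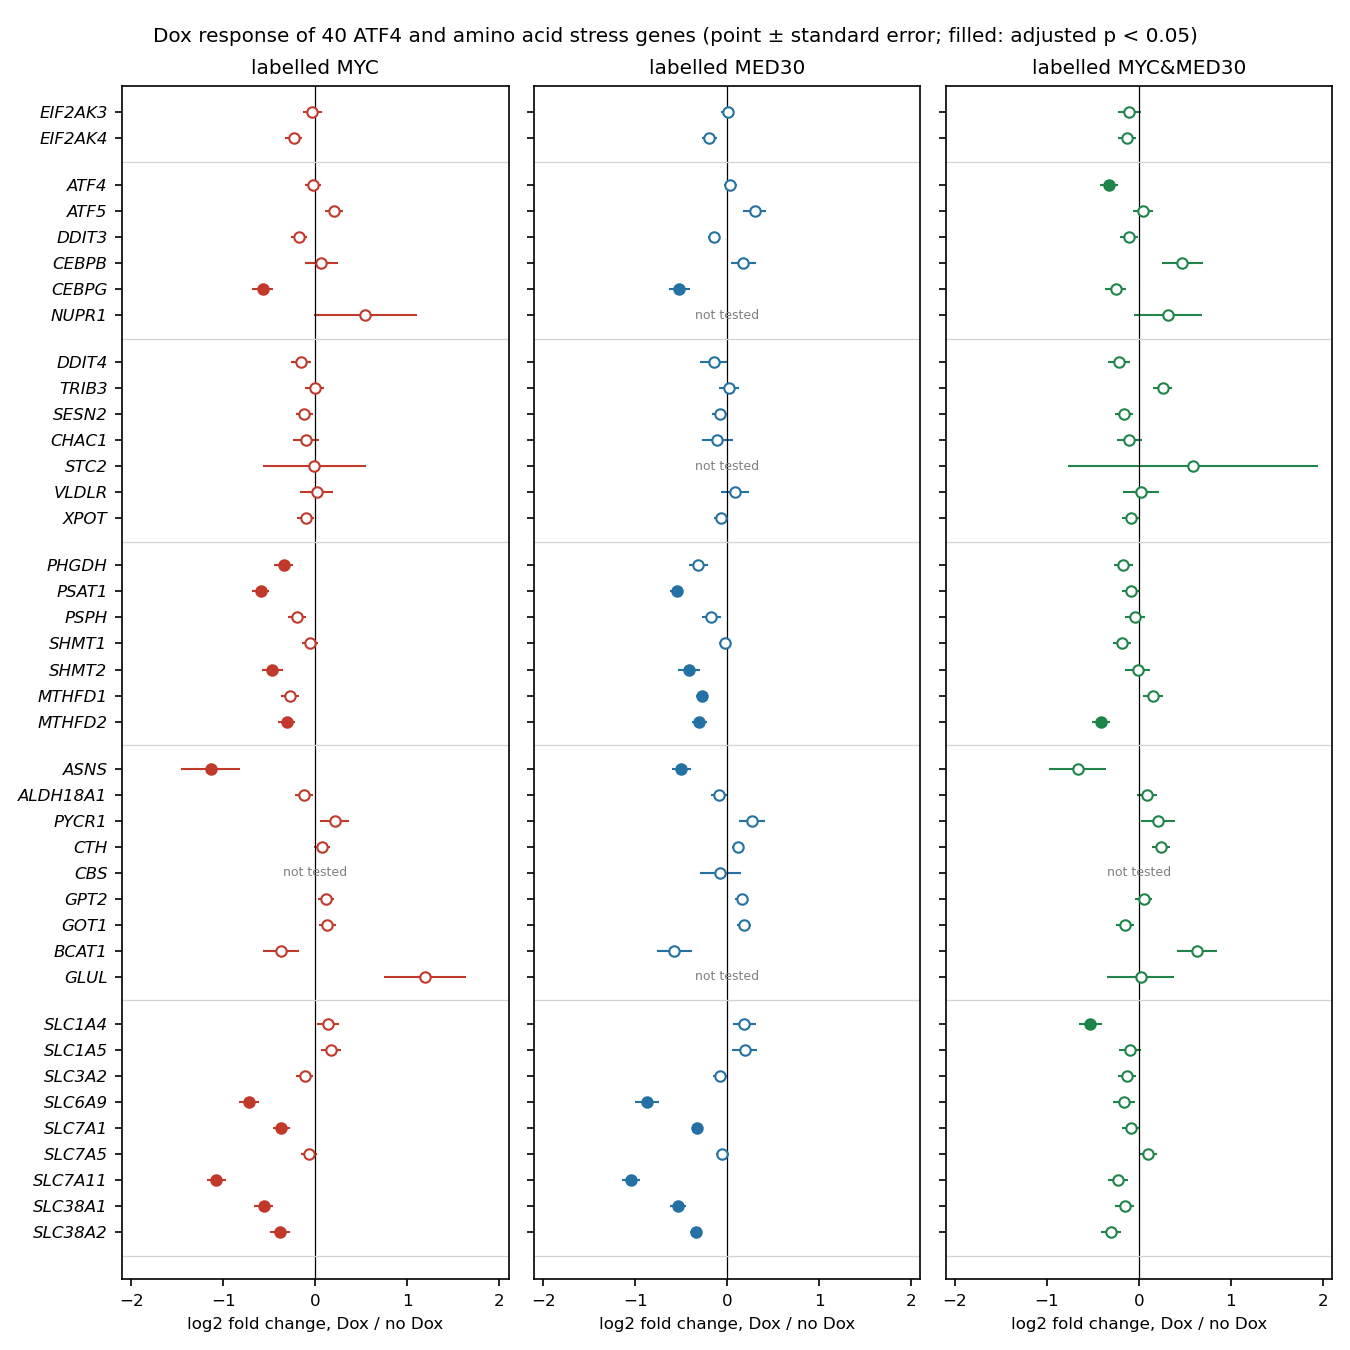
Log2 fold change with Dox of the 40 members (x axis, with the standard error as a bar), by line as labelled and in the order of the 6 role groups, which grey lines separate. Filled points passed at an adjusted p under 0.05 (edgeR for the lines labelled MYC and MYC&MED30, limma for MED30), and these 25 filled points (11, 11 and 3) all lie below 0.

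The sensor kinases come first in the pathway. GCN2, encoded by EIF2AK4, is activated by uncharged tRNA. It read 109 and 111 CPM in the controls labelled MYC and 102 and 85.7 CPM with Dox, a log2 fold change of -0.24 (SE 0.09, adjusted p = 0.103 in edgeR) that did not pass although the groups did not overlap. PERK, encoded by EIF2AK3, responds to unfolded protein in the endoplasmic reticulum. Its log2 fold changes were -0.03, 0.01 and -0.10 in the lines labelled MYC, MED30 and MYC&MED30, with overlapping groups each time.

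ATF4 itself (chr22:39520559-39522686) read 94.7 and 88.5 CPM in the controls labelled MYC and 91.1 and 88.2 CPM with Dox. In MYC&MED30 it read 93.9 and 93.4 CPM without Dox and 75.8 and 73.8 CPM with Dox. The groups overlapped in the former line and lay apart in MYC&MED30, where ATF4 fell (log2 fold change -0.33, SE 0.10, adjusted p = 0.0379 in edgeR). The difference between the responses of MYC&MED30 and of the line labelled MYC was -0.29 (SE 0.13, adjusted p = 0.341) and did not pass. The fall in MYC&MED30 lost the threshold in 7 of 16 alternatives, with an adjusted p of 0.377 without control 1, 0.197 without overexpression 1, 0.269 without overexpression 2, and 0.142 and 0.143 without either control labelled MYC.

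CEBPG encodes C/EBPγ, a partner with which ATF4 binds its element. It read 24.9 and 30.3 CPM in the controls labelled MYC and 19.8 and 17.3 CPM with Dox. The MYC&MED30 values were 58.6 and 58.1 CPM and 47.4 and 50.7 CPM, all above those of the libraries labelled MYC. CEBPG fell in the line labelled MYC (log2 fold change -0.57, SE 0.11, adjusted p = 6.66e-04) and in the MED30 values (-0.52, SE 0.12, adjusted p = 0.0179), and in MYC&MED30 its log2 fold change of -0.25 did not pass (adjusted p = 0.223). Without MYC control 2 the adjusted p in the line labelled MYC was 0.109, and without MED30 control 2 that in MED30 was 0.297.

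The other factors did not pass in any line. DDIT3, which encodes the pro-apoptotic factor CHOP, had log2 fold changes of -0.18 in the line labelled MYC, -0.14 in MED30 and -0.10 in MYC&MED30. RefSeq genes overlap 72.1% of its span, namely MARS1, LOC128125814 and MIR616. MARS1, on the opposite strand, covers only its edge, from base 57516588 to 57516652 of chromosome 12. ATF5, a relative of ATF4 that acts in mitochondrial stress, had 0.20, 0.30 and 0.05. CEBPB, a C/EBP factor of the acute phase, read 5.29 and 3.68 CPM in the MYC&MED30 controls and 6.37 and 7.73 CPM with Dox, higher in both Dox libraries but not past the threshold (log2 fold change 0.47, adjusted p = 0.241). The MED30 tables put CEBPB 4.39 times as high as the control counts labelled MYC, and its RefSeq span is 70.5% overlapped by an antisense gene. NUPR1, a small stress-induced chromatin protein, stayed under 1 CPM in all libraries labelled MYC.

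Among the stress effectors, TRIB3, a pseudokinase that restrains AKT and ATF4, had the widest shift in MYC&MED30 of those above 1 CPM. It read 80.3 and 76.5 CPM without and 96.8 and 93.5 CPM with Dox in MYC&MED30, against 25.0 and 26.3 CPM and 23.8 and 27.0 CPM in the libraries labelled MYC. Both Dox libraries of MYC&MED30 lay above both controls, with a log2 fold change of 0.26 (SE 0.10, adjusted p = 0.132) that did not pass. CHAC1, which breaks down glutathione, read 9.87 and 10.1 and then 8.25 and 10.2 CPM in the line labelled MYC and 31.2 and 24.3 and then 28.2 and 27.3 CPM in MYC&MED30, with overlap in both lines. SESN2, a leucine sensor that restrains mTORC1, had -0.12 in the line labelled MYC and -0.16 in MYC&MED30 on the log2 scale. DDIT4, another inhibitor of mTORC1, had -0.16 and -0.22, and XPOT, which exports tRNA from the nucleus, -0.10 and -0.08.

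Serine and one-carbon enzymes formed one of the groups that fell most often in the libraries labelled MYC. PSAT1 (chr9:78297125-78330093), the transaminase of the second step of serine synthesis, read 105 and 113 CPM in the controls labelled MYC and 73.8 and 70.7 CPM with Dox. The MED30 tables gave 115 and 123 scaled units and 81.0 and 80.5 with Dox. The MYC&MED30 libraries read 212 and 193 CPM and 186 and 201 CPM. The groups lay well apart in the first pair of lines and overlapped in MYC&MED30. PSAT1 fell in the line labelled MYC (log2 fold change -0.59, SE 0.09, adjusted p = 3.47e-05) and in MED30 (-0.55, SE 0.07, adjusted p = 0.00137), with -0.09 (SE 0.10, adjusted p = 0.702) in MYC&MED30. The difference of the responses, MYC&MED30 minus the line labelled MYC, was 0.51 (SE 0.13, adjusted p = 0.0528) and did not pass.

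PHGDH, the first and rate-limiting enzyme of the same pathway, read 40.5 and 45.8 CPM and then 32.5 and 35.4 CPM with Dox in the libraries labelled MYC. It fell there (log2 fold change -0.34, adjusted p = 0.0258) and did not pass in MED30 (-0.32, adjusted p = 0.0674) or MYC&MED30 (-0.17, adjusted p = 0.431). Its call in the line labelled MYC was kept in 12 of 16 alternatives. Library size alone ended it (log2 fold change -0.19, adjusted p = 0.157 in edgeR), as did a fit of the 4 libraries of the line alone (0.0565). It was also lost with MYC control 1 left out (log2 fold change -0.43) and with MYC control 2 left out (-0.25). PSPH, the phosphatase of the last step, had -0.20, -0.17 and -0.04, none past the threshold.

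SHMT2, the mitochondrial enzyme that turns serine into glycine and a one-carbon unit, read 26.5 and 30.8 CPM and then 19.5 and 21.9 CPM with Dox in the line labelled MYC, and 26.1 and 24.3 CPM and 26.9 and 24.3 CPM in MYC&MED30. It fell in the line labelled MYC (log2 fold change -0.47, SE 0.11, adjusted p = 0.00578) and in MED30 (-0.42, adjusted p = 0.0423), whereas the MYC&MED30 groups overlapped. The former call was lost without MYC control 2 (adjusted p = 0.28) and when scaled by library size alone (0.0691). The MED30 call was kept in 6 of 11 alternatives and lost without MED30 control 1 or 2 (0.0953 and 0.433), with library size alone (0.108), with the upper quartile (0.0529) and without the filter on low values (0.129). SHMT1, its cytosolic counterpart, showed -0.06, -0.02 and -0.18 on the log2 scale and was called nowhere.

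MTHFD2 (chr2:74198615-74217565), the mitochondrial methylene-tetrahydrofolate dehydrogenase, was the member called in all 3 lines. It read 127 and 134 CPM and then 98.7 and 111 CPM with Dox in the line labelled MYC. In the MED30 tables it read 154 and 160.4 and then 118 and 135 scaled units. In MYC&MED30 it read 273 and 268 CPM and then 199 and 209 CPM. Both Dox libraries lay below both controls in every line. The log2 fold changes were -0.31 (SE 0.09, adjusted p = 0.0216) in the line labelled MYC, -0.30 (SE 0.08, adjusted p = 0.0338) in MED30 and -0.41 (SE 0.10, adjusted p = 0.00587) in MYC&MED30. Scaled by library size alone, MTHFD2 did not pass in the line labelled MYC (-0.16, adjusted p = 0.131) or in MED30 (-0.20, adjusted p = 0.127), and without the filter on low values it did not pass in MED30 (0.125). The replicate block (0.0864) and a fit of the 4 libraries of the line alone (0.0509) also ended the call in the line labelled MYC. Leaving out a library ended these calls too, with an adjusted p of 0.184 and 0.405 in the line labelled MYC without MYC control 1 and 2, 0.0959 with MYC overexpression 1 left out, and 0.0622 and 0.0611 with either Dox library of MYC&MED30 left out. In MYC&MED30 it was 0.151 without control 1, 0.158 without overexpression 1 and 0.0739 without overexpression 2. In MED30 it was 0.156 and 0.312 without control 1 and 2. MTHFD1, the cytosolic trifunctional enzyme, fell in MED30 (-0.28, adjusted p = 0.0204; 0.207 and 0.376 without control 1 and 2), did not pass in the line labelled MYC (-0.27, adjusted p = 0.0673) and had 0.16 in MYC&MED30.

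ASNS, asparagine synthetase and a classical ATF4 target, had few counts and differed between the kinds of table. It read 2.79 and 2.36 CPM, which is 69 and 54 counts, in the controls labelled MYC and 1.28 and 1.07 CPM with Dox, 32 and 34 counts. The MYC&MED30 libraries had 137 and 4 counts without Dox and 53 and 105 with Dox. The MED30 tables held 49.9 and 49.9 and then 38.4 and 32.0 scaled units, 19.4 times the level of the controls labelled MYC. In RefSeq, 99.4% of the ASNS span is overlapped by other genes, among them the readthrough gene CZ1P-ASNS, so the assignment of its reads is uncertain. ASNS fell in the line labelled MYC (log2 fold change -1.14, SE 0.32, adjusted p = 0.0156) and in MED30 (-0.50, SE 0.10, adjusted p = 0.0121), and the first of these calls was lost without MYC control 1, without MYC control 2 and without MYC overexpression 2 (adjusted p = 0.185, 0.0563 and 0.0894). The MED30 call was lost without MED30 control 1 or 2 (0.056 and 0.0659).

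The other amino acid enzymes did not pass in any line. Proline synthesis was represented by ALDH18A1, with log2 fold changes of -0.12, -0.09 and 0.09 in the line labelled MYC, MED30 and MYC&MED30, and by PYCR1, with 0.21, 0.27 and 0.21. CTH, which makes cysteine from cystathionine, had 0.08, 0.12 and 0.24, with both Dox libraries above both controls in each line. The transaminases GPT2 (alanine) and GOT1 (aspartate) had 0.12 and 0.13 in the line labelled MYC and 0.05 and -0.15 in MYC&MED30.

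BCAT1, the cytosolic transaminase of branched-chain amino acids, and GLUL, glutamine synthetase, had wide fold changes at low counts. BCAT1 read 6.43 and 6.26 CPM and then 4.63 and 5.15 CPM in the line labelled MYC, and 6.58 and 5.88 CPM and then 11.6 and 8.67 CPM in MYC&MED30. Its Dox libraries lay below the controls in the former line and above them in the latter, with log2 fold changes of -0.37 (adjusted p = 0.232) and 0.63 (adjusted p = 0.0825) and a difference of 1.01 (SE 0.29, adjusted p = 0.0969), none past the threshold. GLUL read 0.567 and 0.437 CPM and then 1.04 and 1.26 CPM in the line labelled MYC, a log2 fold change of 1.19 (SE 0.44, adjusted p = 0.0755) on 10 to 40 counts per library.

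The transporters held 5 of the 11 falls in the line labelled MYC, of which SLC7A11, SLC6A9 and SLC38A1 kept their call under all 16 alternatives. SLC7A11 (chr4:138164097-138242349), the cystine carrier of system xc-, read 68.2 and 70.9 CPM in the controls labelled MYC and 36.4 and 29.5 CPM with Dox. The MED30 tables gave 80.6 and 84.8 and then 43.4 and 36.2 scaled units. The MYC&MED30 libraries read 85.7 and 68.4 CPM without Dox and 68.8 and 70.2 CPM with Dox. Both Dox libraries lay far below both controls in the former lines, while in MYC&MED30 they lay within the range of the controls. There they were below control 1, and the lower end of the range was the shallow control 2, with 93 counts. SLC7A11 fell in the line labelled MYC (log2 fold change -1.08, SE 0.10, adjusted p = 1.63e-08) and in MED30 (-1.05, SE 0.10, adjusted p = 2.84e-04), but did not pass in MYC&MED30 (-0.23, SE 0.11, adjusted p = 0.263).

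SLC7A11 was also the 1 member of 39 for which the responses of the 2 count lines differed, where 0.714% of all 19318 genes had a higher response in MYC&MED30 and 0.357% a lower one. The difference, MYC&MED30 minus the line labelled MYC, was 0.85 on the log2 scale (SE 0.15, adjusted p = 0.00332 in edgeR), and it stayed between 0.66 and 1.12 and past the threshold under all 15 alternatives. An antisense gene, SLC7A11-AS1, overlaps its locus, and per the methods reads were counted on the sense strand.

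**Figure D2:**
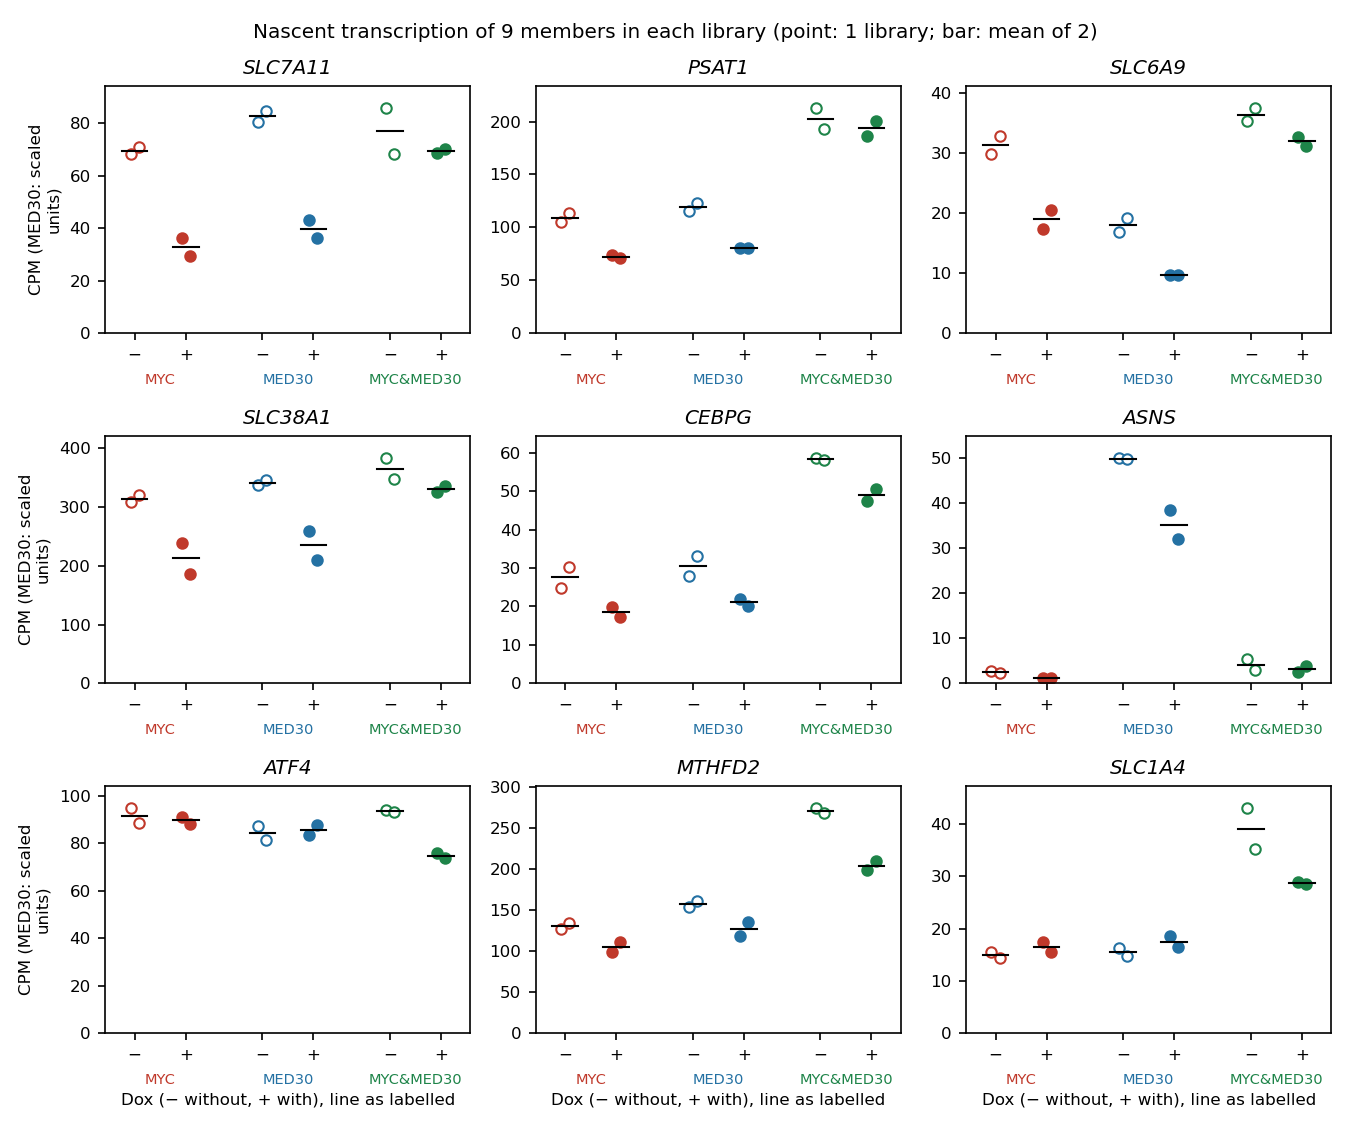
Level of 9 members in each library (y axis from 0; CPM for the lines labelled MYC and MYC&MED30, scaled units for MED30), without (open) and with (filled) Dox, where a point is a library and the bar the mean of 2. In the line labelled MYC, SLC7A11 goes from 68.2 and 70.9 CPM to 36.4 and 29.5 CPM, while with Dox in MYC&MED30 it is at 68.8 and 70.2 CPM.

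SLC6A9 (GlyT1), which takes up glycine, read 29.9 and 32.9 CPM and then 17.3 and 20.6 CPM with Dox in the line labelled MYC, and 17.0 and 19.2 and then 9.63 and 9.73 scaled units in MED30. It fell in both (log2 fold change -0.72, SE 0.11, adjusted p = 3.11e-05, and -0.88, SE 0.13, adjusted p = 0.00293). Levels in MYC&MED30 were 35.5 and 37.5 CPM and then 32.8 and 31.3 CPM, lower in both Dox libraries by a log2 fold change of -0.16 that did not pass (adjusted p = 0.517). The difference of the responses was 0.56 (SE 0.17, adjusted p = 0.104).

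SLC38A1 and SLC38A2 (SNAT1 and SNAT2) import glutamine and other neutral amino acids and lie next to each other on chromosome 12. SLC38A1 read 308 and 319.8 CPM and then 239 and 187 CPM in the line labelled MYC, and 383 and 349 CPM and then 326 and 336 CPM in MYC&MED30. It fell in the line labelled MYC (log2 fold change -0.56, SE 0.10, adjusted p = 3.27e-04) and in MED30 (-0.54, adjusted p = 0.00503), with -0.15 (adjusted p = 0.47) in MYC&MED30. The MED30 call of SLC38A1 was lost without the filter on low values (adjusted p = 0.0949 in limma). SLC38A2 had the highest level of all members per length (97.8 CPM per kb of gene span in the controls labelled MYC). It read 1427 and 1426 CPM and then 1192 and 994 CPM in the line labelled MYC and 1344 and 1133 CPM and then 985 and 1036 CPM in MYC&MED30. Both Dox libraries were lower in both lines, by a log2 fold change of -0.38 (SE 0.11, adjusted p = 0.0156) and -0.30 (SE 0.11, adjusted p = 0.0975), of which the former passed and the latter did not, with a difference of 0.08 (SE 0.15) between the lines. The SLC38A2 call in the line labelled MYC was kept in 9 of 16 alternatives. The replicate block (adjusted p = 0.069 in edgeR) and a fit of the 4 libraries of the line alone (0.0512) ended it. It was also lost without either MYC control (log2 fold change -0.39 each time) and with MYC overexpression 2 left out (-0.24). Leaving out either Dox library of MYC&MED30 ended it too (-0.39 each time). In MED30 SLC38A2 fell (log2 fold change -0.34, adjusted p = 0.0122 in limma), and the call was lost without the filter on low values (0.106). It was also lost with MED30 control 1 or 2 left out (log2 fold change -0.33 and -0.35).

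SLC7A1 (CAT1), the main importer of arginine and lysine, read 187 and 193 CPM and then 153 and 142 CPM in the line labelled MYC and fell (log2 fold change -0.37, SE 0.09, adjusted p = 0.00492), also in MED30 (-0.32, adjusted p = 0.00833). Its MYC&MED30 value was -0.09 (adjusted p = 0.698). Its calls were lost without MYC control 1 or 2 (0.0998 and 0.201) and without MED30 control 1 or 2 (0.136 and 0.205).

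SLC1A4 (ASCT1), a carrier of serine, alanine and cysteine, moved in the other line. It read 15.6 and 14.3 CPM and then 17.5 and 15.5 CPM in the line labelled MYC, and 43.0 and 35.3 CPM and then 28.9 and 28.5 CPM in MYC&MED30. In MYC&MED30 both Dox libraries lay below both controls and SLC1A4 fell (log2 fold change -0.53, SE 0.12, adjusted p = 0.00668), while in the line labelled MYC the groups overlapped (0.14, adjusted p = 0.534). The difference of the responses was -0.66 (SE 0.17, adjusted p = 0.0536) and did not pass. Without MYC&MED30 control 1 the fall was -0.28 with an adjusted p of 0.645, and without overexpression 2 the adjusted p was 0.066. SLC1A5 (ASCT2), the glutamine carrier, and the heterodimer of SLC7A5 (LAT1) and SLC3A2 (4F2hc), which exchanges leucine, did not pass in any line: their log2 fold changes were 0.17, -0.07 and -0.11 in the line labelled MYC and -0.09, 0.10 and -0.13 in MYC&MED30.

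The heavy chain SLC3A2, which pairs with both SLC7A11 and SLC7A5, read 229 and 228 CPM and then 199 and 223 CPM in the line labelled MYC, with both Dox libraries below the controls but a log2 fold change of -0.11 (adjusted p = 0.484).

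The wider pathway was given by 130 further genes in 6 lists. Of 125 tested, 16 fell and 7 rose in the line labelled MYC (12.8% and 5.6%), where 7.71% of all genes fell and 5.32% rose. In MYC&MED30 2 fell and 7 rose (1.6% and 5.6%, where 3.09% and 3.65% of all genes did). In MED30, 17 of 117 fell and 11 rose (14.5% and 9.40%, where 8.63% and 7.37% of all genes did). Cytosolic aminoacyl-tRNA synthetases, which charge tRNA and include ATF4 targets, were the list with most falls in the line labelled MYC, 7 of 20 (35%, where 7.71% of all genes fell) with 1 that rose (5%). GARS1, for glycine, fell by 0.53 (SE 0.09, adjusted p = 2.27e-04), IARS1, for isoleucine, fell by 0.51 (adjusted p = 6.09e-04), and VARS1, for valine, rose by 0.55 (adjusted p = 2.95e-04). In MYC&MED30 none of the 20 fell and VARS1 rose (0.86, SE 0.12, adjusted p = 1.03e-05). The median log2 fold change of the synthetases was -0.22 in the line labelled MYC and 0.02 in MYC&MED30.

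Of the 15 genes of eIF2 phosphorylation and exchange, 4 fell in the line labelled MYC (26.7%) and none rose, and none was called in MYC&MED30. The shares of all genes, for this and the following lists, were 7.71% that fell and 5.32% that rose in the line labelled MYC, and 3.09% and 3.65% in MYC&MED30. EIF2B2, a subunit of the exchange factor of eIF2, fell by 0.61 (SE 0.10, adjusted p = 4.12e-05) and EIF2S1, the eIF2 subunit that the stress kinases phosphorylate, fell by 0.40 (adjusted p = 0.00393). Among 24 further ATF4 and CHOP targets tested, 1 fell (MTHFD1L, mitochondrial formate synthesis, -0.42, adjusted p = 0.00272) and 1 rose (SLFN5, 0.82, adjusted p = 1.04e-05) in the line labelled MYC, 4.17% each way and so no more than over all genes, and none was called in MYC&MED30. Further amino acid enzymes held 2 of 24 that rose and 2 that fell in the line labelled MYC (8.33% each, near the shares of all genes) and 3 that rose in MYC&MED30 (12.5%). ASS1, which joins citrulline and aspartate on the way to arginine, rose in both count lines (0.43, adjusted p = 0.00345, and 0.88, adjusted p = 9.29e-06). BCAT2, the mitochondrial branched-chain transaminase, also rose in both (0.37, adjusted p = 0.0149, and 0.40, adjusted p = 0.0355). Of 19 further transporters tested, 1 rose and 2 fell in the line labelled MYC (5.26% and 10.5%) and 2 rose and 1 fell in MYC&MED30 (10.5% and 5.26%). SLC7A6 (y+LAT2) rose by 0.68 in the line labelled MYC (adjusted p = 1.83e-06), and SLC38A6 fell in the line labelled MYC and in MYC&MED30 (-0.51, adjusted p = 4.17e-04, and -0.53, adjusted p = 8.05e-04). Of 23 genes by which mTORC1 senses amino acids, 2 rose in the line labelled MYC (8.70%; RRAGD, 0.39, and SESN1, 0.34) and none fell, with 1 higher and 1 lower in MYC&MED30 (4.35% each), of which KICS2 was higher by 0.44.

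The difference of the 2 responses passed for 4 of these 125 genes. That is 3 higher (2.4%) and 1 lower (0.8%), where 0.714% and 0.357% of all genes were. It was higher in MYC&MED30 for MTHFD1L (0.71, SE 0.13, adjusted p = 0.0069), EIF2B2 (0.62, SE 0.14, adjusted p = 0.0233) and IARS1 (0.58, SE 0.14, adjusted p = 0.0362), and lower for SLFN5 (-0.74, SE 0.16, adjusted p = 0.0222). For the first 3, as for SLC7A11, the gene fell in the line labelled MYC and was not called in MYC&MED30.

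**Figure D3:**
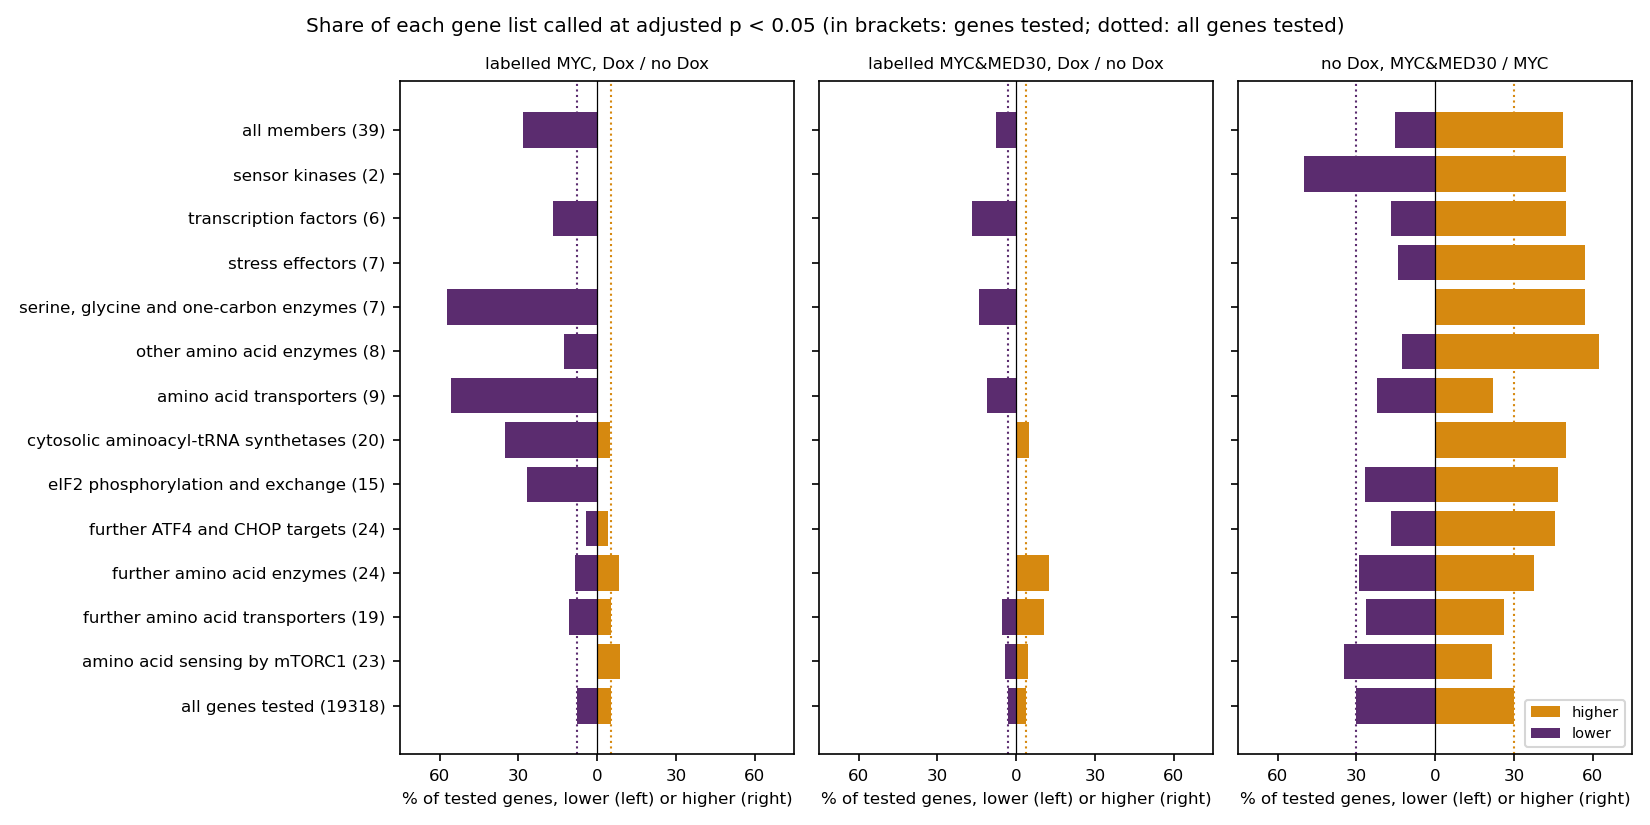
Share of the genes tested in each list (y axis, number tested in brackets) that were higher (right) or lower (left) at an adjusted p under 0.05 in edgeR (x axis, %), in 3 comparisons, with dotted lines at the shares of all genes tested. In the line labelled MYC the serine and one-carbon enzymes (4 of 7) and the transporters (5 of 9) reach furthest to the left, and in the comparison without Dox most lists reach to the right.

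Without Dox, the MYC&MED30 line and the line labelled MYC already differed in this programme. Of the 39 members tested, 19 were higher in MYC&MED30 (48.7%) and 6 lower (15.4%), where 30% of all 19318 genes were higher and 30.2% lower. The median log2 difference of the members was 0.32, and that of all genes -0.06. Each line was in its own set of libraries, with the ribosomal RNA gene RNA28SN5 at 1.78% to 2.43% of counts in the libraries labelled MYC and 0.666% to 0.825% in MYC&MED30, and the epithelial cadherin CDH1 at 20.4 and 15.2 CPM in the controls labelled MYC and 1.92 and 2.21 CPM in those of MYC&MED30. Line, clone and library preparation cannot be told apart. Of the 25 calls, 16 were kept in all 15 alternatives.

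The sensors went opposite ways in the lines without Dox. EIF2AK4 was higher in MYC&MED30 (109 and 111 CPM against 171 and 149 CPM, log2 difference 0.57, SE 0.10, adjusted p = 1.69e-05). EIF2AK3 was lower (83.2 and 83.4 CPM against 56.6 and 39.0 CPM, -0.66, SE 0.12, adjusted p = 3.09e-05). ATF4 did not pass, at 43.0 and 44.0 CPM per kb of gene span, with a log2 difference of 0.03 (SE 0.10, adjusted p = 0.784), and neither did DDIT3 (-0.16, SE 0.10, adjusted p = 0.151).

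Of the 7 stress effectors, 4 (57.1%) were higher in MYC&MED30, namely TRIB3, CHAC1, SESN2 and XPOT, and STC2 (14.3%) was lower. Of all genes, 30% were higher and 30.2% lower. DDIT4 (0.26, adjusted p = 0.0636 in edgeR) and VLDLR (0.32, adjusted p = 0.174) did not pass. TRIB3 read 25.0 and 26.3 CPM in the controls labelled MYC and 80.3 and 76.5 CPM in those of MYC&MED30 (log2 difference 1.63, SE 0.11, adjusted p = 1.52e-13). CHAC1 read 9.87 and 10.1 CPM and 31.2 and 24.3 CPM (1.58, SE 0.15, adjusted p = 2.55e-10). SESN2 read 70.3 and 74.3 CPM and 159.6 and 165 CPM (1.16, SE 0.10, adjusted p = 2.95e-11). No control of the one line overlapped those of the other for these 3 genes, and the share of all genes without overlap was not counted. XPOT had a log2 difference of 0.78. Also higher were the factors CEBPG (1.08) and ATF5 (0.92), while CEBPB was lower (-0.64, adjusted p = 0.0148; 0.112 without MYC control 1 and 0.147 without MYC&MED30 control 1).

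Of the 15 enzymes tested, 9 were higher and 1 lower. Of the serine, glycine and one-carbon enzymes 57.1% were higher and 0% lower, and of the other enzymes 62.5% and 12.5%. Of all genes, 30% were higher and 30.2% lower. PHGDH read 40.5 and 45.8 CPM and 106 and 82.4 CPM (log2 difference 1.20, SE 0.11, adjusted p = 1.48e-10), and MTHFD2 127 and 134 CPM and 273 and 268 CPM (1.06, SE 0.10, adjusted p = 1.43e-10). PSAT1 (0.91), GOT1 (1.42), GPT2 (0.68), ALDH18A1 (0.38), PSPH (0.39) and ASNS (0.95) were higher as well. The last 3 lost the call without MYC&MED30 control 1, with log2 differences of 0.42, 0.17 and 0.18. ASNS lost it also without MYC control 2 (0.83) and with DESeq2 (0.85, adjusted p = 0.114). The crossed replicate block described below ended it too (0.71, adjusted p = 0.0608 in edgeR). CTH was lower (158 and 155 CPM and 106 and 99.3 CPM, -0.59, SE 0.10, adjusted p = 5.96e-06). SHMT1, SHMT2 and MTHFD1 did not pass (0.02, -0.15 and -0.18).

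Of the 9 transporters, 2 were higher and 2 lower (22.2% each, where 30% of all genes were higher and 30.2% lower). SLC1A4 read 15.6 and 14.3 CPM and 43.0 and 35.3 CPM (1.46, SE 0.13, adjusted p = 6.88e-11), and SLC1A5 was also higher (0.41, adjusted p = 0.00497; 0.0558 without MYC&MED30 control 1). SLC7A5 read 304 and 301 CPM and 173 and 164 CPM and was lower (-0.83, SE 0.10, adjusted p = 2.00e-08), as was SLC7A1 (-0.26, adjusted p = 0.0214), whose call was lost in 7 of 15 alternatives. SLC7A11, SLC38A1, SLC38A2, SLC3A2 and SLC6A9 did not pass, with log2 differences of 0.23, 0.23, -0.20, 0.07 and 0.19. Of the 5 transporters that fell with Dox in the line labelled MYC, SLC7A1 was thus the only one called in this comparison.

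The rare transcripts NUPR1, GLUL and STC2 had the widest differences and the fewest counts. NUPR1 had 7 and 11 counts in the controls labelled MYC and 108 and 1 in those of MYC&MED30 (log2 difference 3.28, SE 0.48, adjusted p = 9.47e-07; 0.738 without MYC&MED30 control 1). GLUL had 14 and 10 counts against 87 and 3 (2.67, SE 0.44, adjusted p = 6.38e-06; 0.21 without MYC&MED30 control 1). STC2, a secreted stress hormone, had 34 counts in both controls labelled MYC together and 2 in those of MYC&MED30, a ratio of 9.20 on the CPM scale (exact 95% interval 2.36 to 79.0, counting error only), and its call and direction were lost without MYC&MED30 control 1. For all 3 genes the single shallow control could not set a level, since 3 counts there equal 2.39 CPM.

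**Figure D4:**
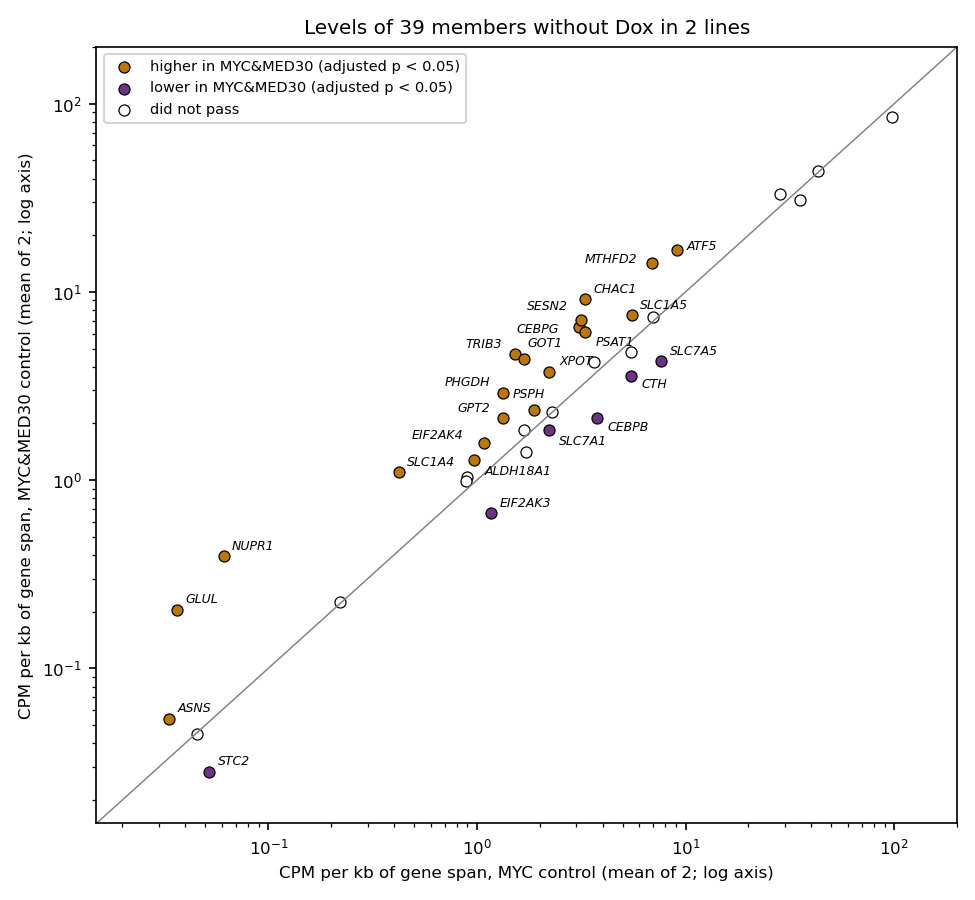
Mean level without Dox of the 39 tested members in the line labelled MYC (x axis) and the MYC&MED30 line (y axis), in CPM per kb of RefSeq gene span on log axes, with the line of equal levels. Of the coloured points, 19 lie above the line (higher in MYC&MED30) and 6 below it (lower), each at an adjusted p under 0.05 in edgeR, and open points did not pass.

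In the wider lists, 10 of 20 aminoacyl-tRNA synthetases were higher in MYC&MED30 without Dox and none lower (50% and 0%, where 30% of all genes were higher and 30.2% lower), with WARS1, for tryptophan, at 1.43 (SE 0.10, adjusted p = 4.03e-13). Of 24 further ATF4 and CHOP targets, 11 were higher and 4 lower (45.8% and 16.7%). In the eIF2 list 7 of 15 were higher and 4 lower (46.7% and 26.7%), with the phosphatase subunits PPP1R15B and PPP1R15A, which remove the phosphate from eIF2, at -1.41 (adjusted p = 2.61e-12) and -1.17 (adjusted p = 7.99e-11). The further transporters held 5 higher and 5 lower of 19 (26.3% each), and mTORC1 sensing 5 higher and 8 lower of 23 (21.7% and 34.8%), which is near the shares of all genes.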

How the data were processed

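PRO-seq libraries of 3 Mia PaCa-2 lines, with and without Dox, were taken with the groups and replicate numbers of their labels. Per the study's methods and processing notes, the authors removed adapters (Trim Galore), aligned to hg38 (Bowtie2), and used featureCounts 2.0.3 for sense-strand reads of each whole gene and DESeq2 2.11.40.8 for tests. The aligner's version is not given in the sources used here. Of the deposited tables, the 8 of the lines labelled MYC and MYC&MED30 are raw counts per gene. The 4 deposited MED30 tables hold a score, values that the authors had scaled to nearly equal totals (6379143 to 6519353) and rounded, so their depth is unknown. In these, 11 rows named by a number (0.0805% of the values) were left unnamed.

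The count tables entered edgeR 4.0.16 under R 4.3.3 as 1 quasi-likelihood fit of 4 groups (glmQLFit and glmQLFTest), scaled by TMM and filtered by filterByExpr. For MED30, limma 3.58.1 with a mean-variance trend was run on the log2 of each TMM-scaled value after adding 1. A gene needed 10 or more in 2 or more libraries. The added 1 understates the change of low genes. P-values were adjusted by Benjamini-Hochberg over all genes tested, with a threshold of 0.05. The responses of MED30 and of the count lines were not tested against each other, since the tables were scaled separately. The CPM values use TMM-adjusted library totals. CPM per kb divides by the RefSeq gene span on GRCh38.p14. The scripts were tested on simulated data.

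The members and lists were chosen with earlier results of these data known. Members called in any comparison are given in full, the others by range and count, with ATF4, DDIT3, TRIB3, ASNS, PHGDH, SLC7A11 and EIF2AK4 always given. From each further list the called genes with the smallest adjusted p, at most 3, could be named, and some listed genes are not reported here. Intervals cover counting error only. Alternatives were other scalings, no filter on low values, DESeq2 1.42.0, other pseudocounts, a replicate block, single lines and leaving out each library.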

Additional observations from a re-analysis of the deposited data

Results flagged for a closer look

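The response of SLC7A11 to Dox differed between the count lines, which was tested as the difference of the responses in edgeR. It was 0.85 on the log2 scale (MYC&MED30 minus the line labelled MYC, SE 0.15, adjusted p = 0.00332, 2 libraries in each group). Both Dox libraries labelled MYC lay below both of their controls, and both Dox libraries of MYC&MED30 lay within the range of theirs. The lower end of that range was the shallow control 2, and both Dox libraries lay below control 1.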

How the results depend on the processing

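The 51 calls of single members were recomputed under 11 to 16 alternatives each. In 648 of these values a call kept its direction and stayed past the threshold, in 85 it lost the threshold, and 1 reversed, STC2 without MYC&MED30 control 1 (0.030 between the uninduced lines, and -4.02 without MYC&MED30 control 2). The cause was not tested. Scaled by library size alone, members that rose numbered 5 in the line labelled MYC, 1 in MYC&MED30 and 2 in MED30. Of all genes, 14.4%, 6.09% and 12.6% rose there. Members with a higher or lower response in MYC&MED30 than in the line labelled MYC numbered 2 and 2, where 0.730% and 0.958% of all genes did so. The medians were 0.037 in the line labelled MYC, -0.036 for the difference and 0.014 in MED30. With the upper quartile 1 rose in MYC&MED30 (CTH), where 4.81% of all genes rose. In the difference 2 were higher and 1 lower, where 1.07% and 0.595% of all genes were. The median in the line labelled MYC was then -0.068. DESeq2 size factors gave 2 higher (PSAT1 and SLC7A11) and 1 lower (SLC1A4) in the difference, where 0.782% and 0.523% of all genes were. DESeq2 gave 2 higher, where 0.741% of all genes were. Without a filter on low counts 1 rose in the line labelled MYC (GLUL), where 4.74% of all genes rose. The difference was then lower for 1 (SLC1A4), where 0.476% of all genes were lower. Without a filter on low MED30 values 3 fell (PSAT1, SLC6A9 and SLC7A11), where 1.08% of all genes did. The 4 libraries of MYC&MED30 fitted alone gave 3 that rose (TRIB3, CTH and BCAT1) and 5 that fell. In that fit 5.83% of all genes rose and 6.09% fell.

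Leaving out 1 library at a time, 4 to 12 members fell and 0 to 2 rose in the line labelled MYC, 0 to 5 fell and 0 to 2 rose in MYC&MED30, and 4 to 18 fell and 0 to 6 rose in MED30. The difference was higher for 1 to 4 and lower for 0 to 2. Between the uninduced lines 13 to 22 were higher and 4 to 6 lower. Medians ran from -0.14 to -0.09 in the line labelled MYC, -0.12 to 0.045 in MYC&MED30, 0.020 to 0.26 for the difference, 0.17 to 0.37 between the uninduced lines and -0.19 to -0.047 in MED30. The share of all genes called also changed from one such fit to the next. In MED30, larger shares of all genes both rose and fell with either Dox library left out. The ranges of member counts therefore do not show whether members changed more often than other genes. Where leaving out a library left 1 in a group, the spread of that group was taken from the other groups.

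The replicate numbers did not pair the samples: the same-numbered control and Dox libraries deviated with correlations of -0.28 in the line labelled MYC, -0.12 in MYC&MED30 and -0.26 in MED30. With the replicate number as a block, 9 members fell in the line labelled MYC, 2 in MYC&MED30 and 12 in MED30. Over all genes, 5.19%, 1.96% and 8.50% fell there. In MED30 1 member rose, where 8.56% of all genes did, and 1 was higher in the difference, where 0.466% were. Between the uninduced lines 19 were higher and 3 lower, where 27.1% and 28.2% of all genes were. A crossed replicate block, chosen after seeing the data, gave 13 that fell and 1 that rose in the line labelled MYC. The shares of all genes there were 10.6% and 7.24%. In MYC&MED30 4 fell, where 3.81% of all genes did. In MED30 14 fell and 1 rose, where 13.8% and 13.3% of all genes did. The difference was higher for 5 and lower for 1, where 2.17% and 0.989% of all genes were. Without Dox 20 were higher and 6 lower between the lines, where 29.7% and 30.0% of all genes were. The 2 libraries in each group and the 1257499 counts of MYC&MED30 control 2 limited every comparison with that line.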
